A study of Mus musculus with 8 samples.

Results

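The genes described here are 9 genes of the GABAergic interneuron lineage, taken by name and not by any measured value: *Gad1*, *Gad2*, *Slc32a1*, *Dlx1*, *Dlx2*, *Dlx5*, *Dlx6*, *Lhx6* and *Sp9*. All 9 were found among the 48709 genes listed for each library. RNA came from the cortex of P1 mice, at postnatal day 1, in 4 control and 4 dcKO_Nex-Cre samples, with 1 library each. In the dcKO_Nex-Cre cortex the floxed genes *Smarcc1* and *Smarcc2*, which encode the BAF155 and BAF170 scaffold subunits of the BAF chromatin remodeling complex, are deleted by Nex-Cre, a Cre inserted at *Neurod6* that acts in postmitotic projection neurons. Per the study's methods, controls carried a single floxed copy of each gene (BAF155 fl/+, BAF170 fl/+) and no Cre, so that the Cre allele itself was present in the mutant alone. The sample labels do not state that the libraries of a group came from separate animals, and p values then measure only the spread between these samples.

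Cortical interneurons are born in the ganglionic eminences of the ventral forebrain and migrate tangentially into the cortex, whereas projection neurons arise in the cortex itself. *Dlx* homeodomain factors start the GABAergic program in ventral progenitors, *Lhx6* directs the fate and migration of neurons from the medial ganglionic eminence, and the GABA enzymes and the vesicular transporter give the mature cell its transmitter. Nex-Cre is not known to act in these cells, which keep the BAF complex while they settle among neurons that have lost it. Striatal projection neurons, which also use GABA, share much of this program, and the RNA of neighboring striatum can therefore add to the same genes.

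The members lie on 2 chromosomes of the GRCm38 mouse genome. *Gad2*, *Lhx6*, *Gad1*, *Dlx1*, *Dlx2*, *Sp9* and *Slc32a1* are on chromosome 2, and *Dlx5* and *Dlx6* are on chromosome 6. *Dlx1* (chromosome 2, 71528113 to 71533981, plus strand) and *Dlx2* (71543408 to 71546754, minus strand) face each other across 9426 bases. *Dlx6* (chromosome 6, 6863334 to 6868568, plus strand) and *Dlx5* (6877805 to 6882085, minus strand) are arranged in the same way across 9236 bases. The second pair shares its chromosome with *Neurod6*, the site of the Cre allele, at a distance of 48.8 Mb.

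Upstream sequence was taken from RefSeq on GRCm38.p6 for the 7 members that matched, with 250 bases before each annotated start, while *Dlx5* and *Dlx6* had no match. The windows shown are those of *Dlx2* and of the first and the last start of *Lhx6*, the member windows that hold no annotated exon. Capitals mark matches, on either strand, to GGGCGG (a GC box) or TAATTG (a homeodomain core), which do not overlap each other here. The windows were chr2:71546755-71547004 for *Dlx2*, chr2:36105409-36105658 for the first *Lhx6* start and chr2:36104061-36104310 for the last, and all are written 5′ to 3′ on the minus strand.
Dlx2: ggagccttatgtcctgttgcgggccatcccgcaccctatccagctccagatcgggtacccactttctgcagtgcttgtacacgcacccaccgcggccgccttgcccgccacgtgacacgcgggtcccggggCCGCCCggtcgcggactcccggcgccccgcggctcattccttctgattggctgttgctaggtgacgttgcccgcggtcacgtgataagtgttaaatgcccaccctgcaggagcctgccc
Lhx6 first start: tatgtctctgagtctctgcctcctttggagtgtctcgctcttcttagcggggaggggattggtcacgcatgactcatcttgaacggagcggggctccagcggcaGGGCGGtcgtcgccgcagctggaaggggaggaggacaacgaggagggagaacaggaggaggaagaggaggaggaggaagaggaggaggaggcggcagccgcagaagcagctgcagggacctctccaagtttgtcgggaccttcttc
Lhx6 last start: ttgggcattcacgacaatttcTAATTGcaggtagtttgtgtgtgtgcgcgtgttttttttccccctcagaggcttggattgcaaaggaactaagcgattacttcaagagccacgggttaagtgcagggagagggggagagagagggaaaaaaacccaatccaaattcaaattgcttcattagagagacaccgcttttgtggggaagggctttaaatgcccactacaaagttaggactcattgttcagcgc

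GGGCGG was found in 5 of the 9 member windows (*Lhx6* has 3) and in 32.7% of all 32851 windows of this length. TAATTG was found in 2 of 9, those of *Sp9* and the last *Lhx6* start, and in 7.17% of all windows. TAATTA, the other homeodomain core searched, was in none of the 9 member windows and in 4.84% of all. TATAAA, the core promoter motif of that name, was in the window of *Gad1* alone among the members, against 12.4% of all windows, and TGACGTCA (the cAMP response element) was in no member window against 1.55%. These matches describe the letters only.

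Raw counts per gene were compared as CPM, counts scaled to a common library size after TMM normalization, and tested by the quasi-likelihood test of edgeR, with p values adjusted by Benjamini-Hochberg over all 16287 genes left by its low-count filter. Library totals lay between 17958641 and 35191912 counts. The targeted genes were lower in all 4 dcKO_Nex-Cre libraries than in any control. *Smarcc2* stood at 462.3 ± 25.85 CPM in the control and 263.1 ± 26.03 CPM in the mutant (SD, n = 4 each; adjusted p = 0.00267, edgeR). *Smarcc1* stood at 147.6 ± 11.58 and 102.2 ± 13.7 CPM (SD, n = 4 each; adjusted p = 0.0348, edgeR). Control replicate 2 and dcKO_Nex-Cre replicate 2 stood apart from the other libraries. They alone had high *Xist* (1877 and 917.4 CPM, against at most 8.429 elsewhere) and low Y-linked RNA, and control replicate 2 still held *Ddx3y* at 4.215 CPM against 0.2683 in dcKO_Nex-Cre replicate 2 and 55.07 to 81.56 in the other libraries. Whether control replicate 2 holds RNA of more than a single sample was not tested. The summed level of 16 striatal markers was 1307 CPM in dcKO_Nex-Cre replicate 2, against 613.8 to 795.9 in the other mutants and 671.8 to 773.4 in the controls, where control replicate 2 was the highest. None of the 16 was at 0 in any library. Control replicate 2 and dcKO_Nex-Cre replicate 4 had the largest share of mitochondrial counts of their groups, 6.87% and 6.148%. The lane tag was 2 for the controls and for mutant replicates 1 and 2, and 8 for mutant replicates 3 and 4.

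The members were first compared between the control and the dcKO_Nex-Cre cortex. None of the 9 members passed the test, whereas 0.884% of all tested genes did, with 0.510% called lower in the mutant. Without adjustment, 0 of 9 had a p under 0.05, against 13.6% of all genes, and DESeq2 and limma-voom also called 0 of 9. The CPM of the groups overlapped for each member, while 4.01% of all tested genes were lower in the mutant with no overlap and 3.99% were higher with none. The log2 fold changes of the members ran from -0.19 for *Gad1* to 0.19 for *Dlx2*, with a median of -0.015, beside a median of 0.004 over all genes tested. In whole tissue, fewer cells of a type and less RNA per cell cannot be told apart.

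**Figure D1:**
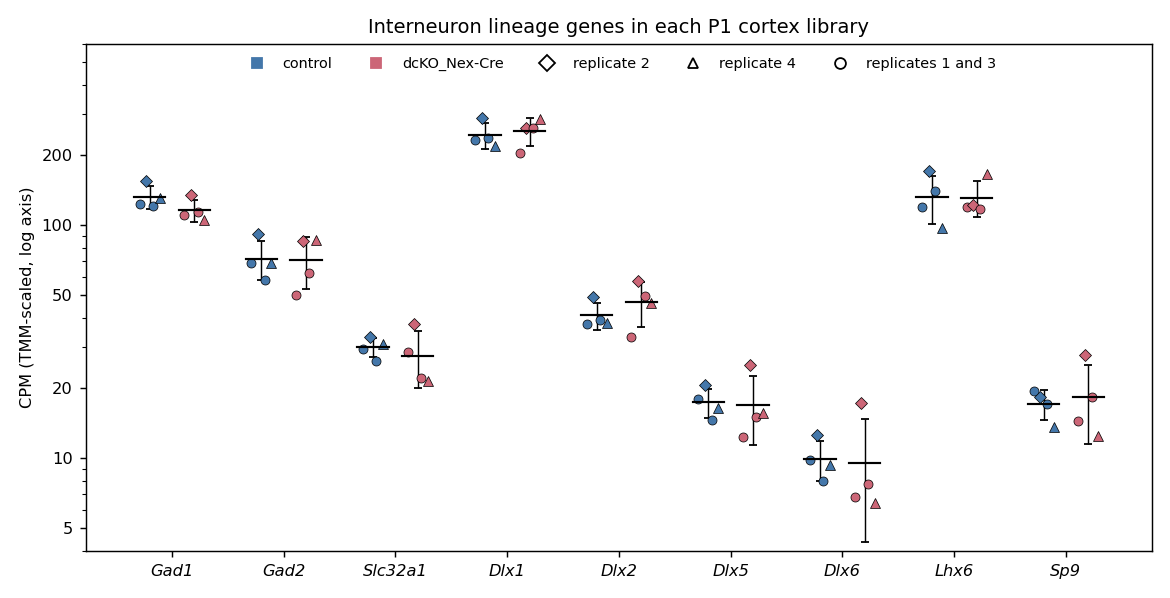
CPM of the 9 members (horizontal axis) in each library on a logarithmic axis; blue marks control and red dcKO_Nex-Cre, diamonds mark replicate 2 of each group and triangles replicate 4, and lines give the mean with the SD of 4 libraries. The groups overlap for every member, from *Dlx6* near 10 CPM to *Dlx1* near 200 CPM and above.

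*Gad1* encodes GAD67, the enzyme that makes most of the GABA of the cell, and *Gad2* encodes GAD65, the form found at nerve endings. *Gad1* stood at 123, 154, 121 and 131 CPM in control replicates 1 to 4 and at 110, 134, 114 and 105 CPM in dcKO_Nex-Cre replicates 1 to 4. Mutant replicate 2 lay above 3 of the controls, and the other 3 mutants lay below all controls. The means were 132.4 ± 15.17 and 116 ± 12.75 CPM (SD, n = 4 each), a log2 fold change of -0.19 (standard error 0.1, 95% interval -0.409 to 0.03, adjusted p = 0.42, edgeR), and the two-sided exact permutation test over the 70 regroupings gave p = 0.1714, where 0.0286 is the smallest it allows. *Gad2* stood at 68.9, 91.4, 58.1 and 69.2 CPM in the controls and at 50.3, 85.7, 62.1 and 86.8 CPM in the mutants. It was high in replicate 2 of either group and in mutant replicate 4, and its log2 fold change was -0.015 (95% interval -0.413 to 0.384, adjusted p = 0.979, edgeR).

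*Slc32a1* encodes the vesicular GABA transporter VGAT, which loads GABA into synaptic vesicles. It stood at 29.5, 33.2, 26.3 and 31 CPM in the controls and at 28.7, 37.8, 22.1 and 21.5 CPM in the mutants. The mutants spread more widely than the controls, with a coefficient of variation of 27.6% against 9.71%, and held both the highest and the lowest library. The log2 fold change was -0.119 (95% interval -0.482 to 0.244, adjusted p = 0.775, edgeR). The antisense gene *Gm14205*, at 0.02304 CPM on average, shares 697 of the 2797 exonic bases of *Slc32a1*. The kit does not mark strand, and how reads in shared bases were counted is not given.

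*Dlx1* and *Dlx2* act in early progenitors of the ganglionic eminences and switch on *Dlx5* and *Dlx6*. *Dlx1* stood at 231, 288, 236 and 219 CPM in the controls and at 203, 262, 262 and 287 CPM in the mutants, with a log2 fold change of 0.059 (95% interval -0.203 to 0.321, adjusted p = 0.851, edgeR). *Dlx2* stood at 37.6, 49.3, 39.1 and 38.2 CPM in the controls and at 33.3, 57.6, 49.9 and 46.6 CPM in the mutants. Mutant replicates 2 and 3 were above all controls, replicate 4 was above 3 of them, and replicate 1 was below all of them. The log2 fold change of *Dlx2* was 0.19 (95% interval -0.146 to 0.526, adjusted p = 0.596, edgeR). Part of the *Dlx1* count cannot be assigned to a strand, since 335 of its 5396 exonic bases are shared with the antisense gene *Dlx1as* and the kit does not mark strand. *Dlx1as* stood at 21.67 ± 3.548 and 23.25 ± 3.834 CPM (SD, n = 4 each).

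*Dlx5* and *Dlx6* maintain the program in neurons that have left the cell cycle. *Dlx5* stood at 17.9, 20.5, 14.6 and 16.4 CPM in the controls and at 12.3, 25.1, 15 and 15.6 CPM in the mutants, with a log2 fold change of -0.027 (95% interval -0.465 to 0.411, adjusted p = 0.963, edgeR). *Dlx6* stood at 9.85, 12.5, 7.97 and 9.34 CPM in the controls and at 6.78, 17.3, 7.72 and 6.4 CPM in the mutants. Mutant replicate 2 held the highest level of either gene, and the other 3 mutants were below every control in *Dlx6*. The log2 fold change of *Dlx6* was -0.048 with the widest interval of the members (95% interval -0.697 to 0.601, adjusted p = 0.956, edgeR). Without mutant replicate 2, 2 of the 9 members, *Gad1* and *Dlx6*, no longer overlapped between the groups, both lower in the mutant, as were 5.46% of all tested genes with that library left out, and still neither passed the test. The part of striatal RNA in these values was not tested. *Dlx6os1*, a long noncoding RNA read from the strand opposite to *Dlx6*, shares no exonic base with *Dlx6* and stood at 85.53 ± 22.25 and 77.5 ± 21.11 CPM (SD, n = 4 each; adjusted p = 0.799, edgeR).

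*Lhx6* is a LIM homeodomain factor of neurons from the medial ganglionic eminence, and *Sp9* is a zinc finger factor of migrating interneurons and of striatal neurons. *Lhx6* stood at 120, 170, 140 and 96.9 CPM in the controls and at 119, 122, 118 and 166 CPM in the mutants, with a log2 fold change of -0.003 (95% interval -0.365 to 0.358, adjusted p = 0.994, edgeR). The controls held both the highest and the lowest library, and 3 of the mutants lay within 5 CPM of each other. *Sp9* stood at 19.4, 18.3, 17.2 and 13.7 CPM in the controls and at 14.4, 27.8, 18.4 and 12.5 CPM in the mutants. Mutant replicate 2 was again the highest, and the log2 fold change was 0.098 (95% interval -0.384 to 0.581, adjusted p = 0.868, edgeR). On the opposite strand, *Cir1* shares 270 of the 5044 exonic bases of *Sp9*.

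**Figure D2:**
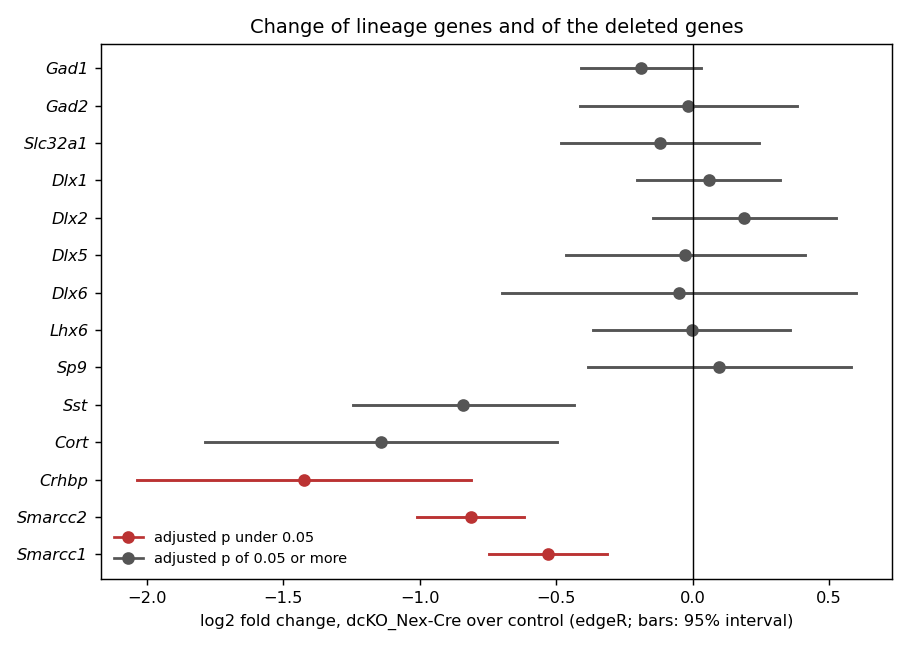
Log2 fold change of the dcKO_Nex-Cre over the control cortex (horizontal axis) with its 95% interval from edgeR for the 9 members, for *Sst*, *Cort* and *Crhbp*, and for the deleted genes; red marks an adjusted p under 0.05. The intervals of the members all hold 0, whereas those of *Smarcc1*, *Smarcc2*, *Sst*, *Cort* and *Crhbp* lie below it. The intervals are not adjusted for the number of genes, and *Sst* and *Cort* did not pass the test. *Sst*, *Cort* and *Crhbp* had the smallest p of the subtype genes. Of the lineage genes not drawn, *Tox3* (0.191 to 0.612), *Satb1* (0.04 to 0.37) and *Abat* (0.03 to 0.531) had intervals above 0 and *Nr2f2* (-0.999 to -0.076) below it.

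The intervals give the precision of the fold changes. The upper bounds of the members ran up to 0.601 and the lower bounds down to -0.697 on the log2 scale, both for *Dlx6*, and *Gad1* had the narrowest interval. A p that misses the threshold does not show equal levels.

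Levels were compared between genes as CPM per kilobase of exon. In the control cortex *Dlx1* was the highest at 45.13 ± 5.669 CPM per kilobase (SD, n = 4), above *Lhx6* at 27.43 ± 6.451, and their libraries did not overlap. *Gad1*, *Dlx2*, *Gad2* and *Slc32a1* followed *Lhx6* in this order, each overlapping the gene before it, down to 10.72 ± 1.041 for *Slc32a1*. *Dlx5* at 7.665 ± 1.115 and *Dlx6* at 4.178 ± 0.8056 were each apart from the gene above, and *Sp9* at 3.393 ± 0.4911 overlapped *Dlx6*. In the dcKO_Nex-Cre cortex the order was the same except that *Dlx2* (16.4 ± 3.554) stood before *Gad1* (15.18 ± 1.669), 2 genes whose libraries overlapped in either group.

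Ratios between members within a library do not depend on how much the library is scaled. *Gad1* counts were 1.69 to 2.08 times those of *Gad2* in the controls and 1.22 to 2.2 times in the mutants. *Dlx1* counts were 5.73 to 6.14 times those of *Dlx2* in the controls and 4.55 to 6.16 times in the mutants, and *Dlx5* counts were 1.64 to 1.83 and 1.45 to 2.44 times those of *Dlx6*. The mutants were more spread in each of these 3 ratios. The differences of the mean log2 ratio, mutant minus control, were -0.159 for *Gad1*/*Gad2*, -0.116 for *Dlx1*/*Dlx2*, 0.097 for *Dlx5*/*Dlx6*, 0.169 for *Lhx6*/*Slc32a1* and 0.195 for *Sp9*/*Slc32a1*. None of the 5 passed a two-sided exact permutation test, with an adjusted p of 0.6571 for each.

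Within the groups the members did not all follow the same libraries. Of the 9, 4 were highest in control replicate 2 and 5 in dcKO_Nex-Cre replicate 2, the libraries with high *Xist* and with the most striatal marker RNA of their group. After the group means were subtracted, *Dlx6* varied over the 8 libraries with *Dlx5* (r = 0.936), *Gad1* (0.881), *Sp9* (0.857) and *Slc32a1* (0.854), and of the list genes it varied most closely with the striatal genes *Zfp503* (0.99), *Ebf1* (0.969) and *Drd2* (0.953). *Lhx6* varied with *Maf* (0.954), *Npas1* (0.951) and *Htr3a* (0.94), genes of cortical interneurons, and with *Dlx1* (0.739). Its coefficient with *Dlx6* was -0.045. *Lhx6* varied as closely with the projection neuron marker *Cux2* (0.969) and with *Reln* (0.956). Other interneuron genes went the opposite way, with *Sst* at -0.802, *Npy* at -0.701 and *Calb1* at -0.903. The *Lhx6* pattern was thus not shared by the interneuron genes as a whole. These coefficients describe only 8 libraries, which differ in depth and in tissue markers, and no p is given. The 5 genes outside the members most like their mean pattern were *Xist* (0.969), *Mfng* (0.964), *Utp20* (0.964), *Zic1* (0.963) and *Tagln* (0.963). The *Xist* level and the striatal marker level cannot be told apart here, as both were highest in the same 2 libraries of their groups. The 5 meningeal and choroid plexus markers summed to 590.1 CPM in dcKO_Nex-Cre replicate 2, against 17.46 to 21.04 in the other mutants. In the controls they ran up to 1336 CPM, with control replicate 2 the lowest at 38.97. The 7 olfactory bulb and lateral ganglionic eminence markers summed to 786.4 CPM in dcKO_Nex-Cre replicate 2, against 459.4 to 586.5 in the other mutants. The part of these tissues in the pattern was not tested.

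**Figure D3:**
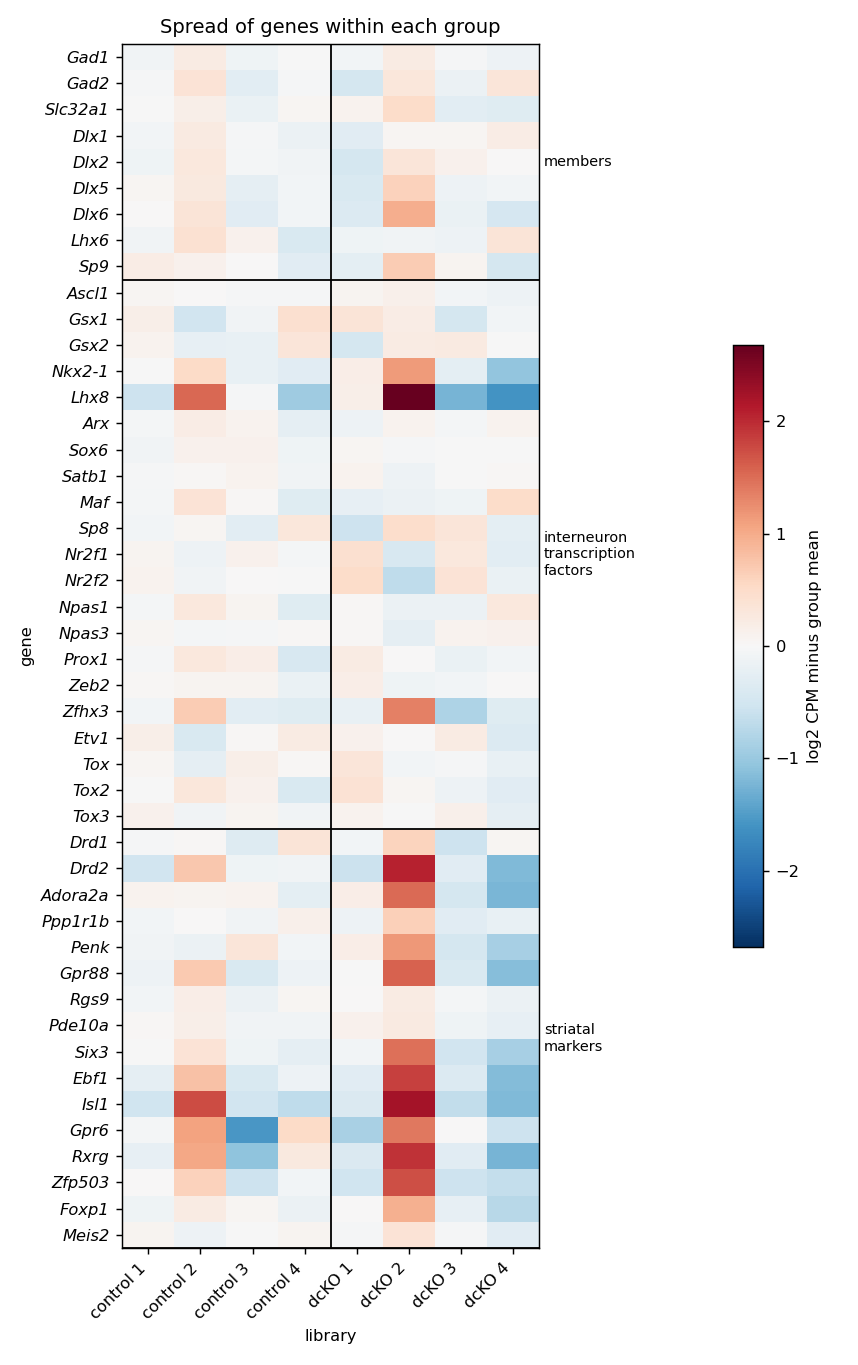
Log2 CPM minus the mean of the group (color; red above, blue below) for the members, other interneuron transcription factors and 16 striatal markers (rows) in the 8 libraries (columns). Among the members *Dlx5*, *Dlx6* and *Sp9* are reddest in dcKO_Nex-Cre replicate 2, as most striatal markers are. *Lhx6* is highest in control replicate 2 and dcKO_Nex-Cre replicate 4, as *Maf* is. Those libraries had the largest mitochondrial share and the lowest totals of their groups.

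Other genes of the lineage were read from the same fit in lists named by function. In whole tissue, the cells that hold the RNA of these genes cannot be told. Of 22 other interneuron transcription factors 0 passed the test, against 0.884% of all tested genes, with a median log2 fold change of 0.102. An unadjusted p under 0.05 was found for 3 of the 22, against 13.6% of all tested genes. *Tox3* had the smallest p of these, at 47.2 ± 3.599 CPM in the control and 62.31 ± 7.051 in the mutant (SD, n = 4 each; log2 fold change 0.402, adjusted p = 0.0875, edgeR), and its groups did not overlap. *Satb1*, a factor of maturing medial interneurons, had a log2 fold change of 0.205 (adjusted p = 0.264, edgeR), and *Nr2f2*, a factor of caudal ganglionic eminence neurons, -0.538 (adjusted p = 0.294, edgeR), with no overlap between its groups. Over all tested genes, 3.99% were higher and 4.01% were lower in the mutant with no overlap. Of 13 receptors and partners of tangential migration 0 passed, from -0.228 to 0.304, and *Erbb4*, the neuregulin receptor of migrating interneurons, was at 111.1 ± 17.58 and 123.3 ± 22.91 CPM (SD, n = 4 each; adjusted p = 0.643, edgeR). Of the 5 tested genes of GABA uptake and breakdown 0 passed, and *Abat*, the GABA transaminase, was at 95.9 ± 4.91 and 116.4 ± 20.03 CPM (adjusted p = 0.312, edgeR).

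Of 15 tested genes that mark interneuron subtypes 1 fell, against 0.510% of all tested genes, and 14 did not pass the test. The gene that fell was *Crhbp*, a binding protein for corticotropin-releasing hormone found in somatostatin interneurons. It stood at 3.39, 2.9, 2.75 and 4.49 CPM in the controls and at 1.25, 0.651, 1.53 and 1.68 CPM in the mutants, so that each mutant lay below each control. Its level fell by 1.424 on the log2 scale (standard error 0.279; adjusted p = 0.0439, edgeR). *Sst*, which encodes the peptide somatostatin of a class of interneurons from the medial ganglionic eminence, stood at 108, 65.1, 88 and 122 CPM in the controls and at 65.5, 43.4, 57.4 and 47.9 CPM in the mutants. Mutant replicate 1 slightly exceeded control replicate 2, and otherwise the mutants were lower, with a log2 fold change of -0.84 (95% interval -1.245 to -0.435, adjusted p = 0.0645, edgeR). *Cort*, which encodes the related peptide cortistatin, stood at 2.348 ± 0.6845 and 1.086 ± 0.3553 CPM (SD, n = 4 each; log2 fold change -1.142, adjusted p = 0.12, edgeR). *Npy* was at 75.15 ± 7.392 and 65.33 ± 12.92 CPM (SD, n = 4 each; adjusted p = 0.522, edgeR), and *Calb1* had a log2 fold change of -0.346 (adjusted p = 0.407, edgeR). *Lhx6*, which the same class of neuron expresses, had a log2 fold change of -0.003, and the difference between *Lhx6* and *Sst* was not tested. *Pvalb* was at or near 0 in every library at this age. *Crhbp* missed the threshold in 7 of the 8 fits that left out a library, in each case with a lower level in the mutant. Over all the lineage lists beside the members, 7 genes were called without mutant replicate 4, 1 without control replicate 2 (*Sst* in place of *Crhbp*), and 0 without any other single library.

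**Figure D4:**
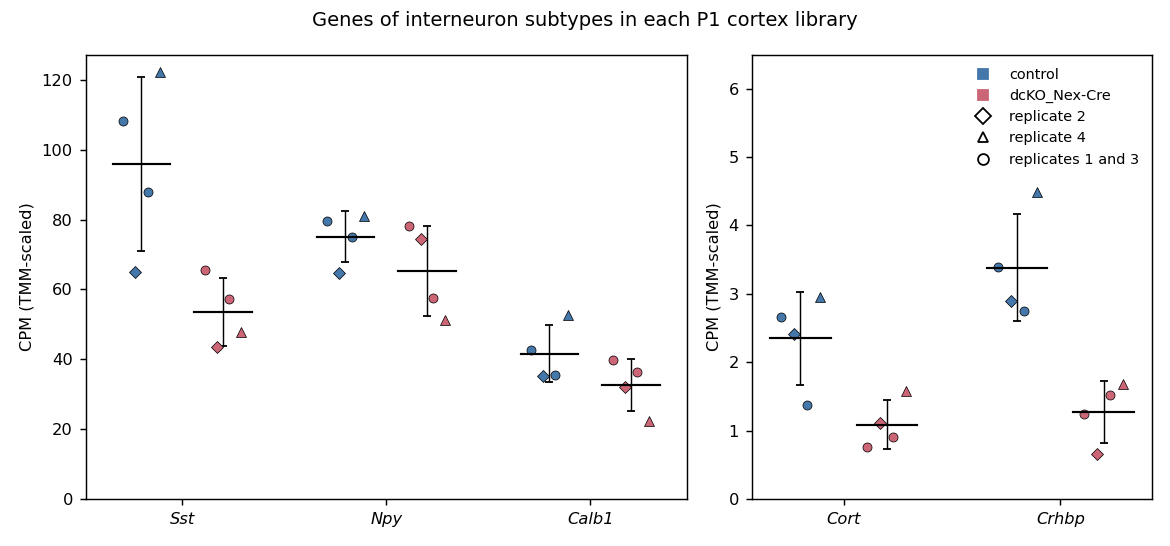
CPM of *Sst*, *Npy*, *Calb1*, *Cort* and *Crhbp* in each library on linear axes from 0, with colors, symbols and error bars as for the members (mean and SD of 4 libraries). *Crhbp* is lower in all 4 mutants than in any control, *Sst* and *Cort* overlap each in a single pair of libraries, and *Npy* and *Calb1* overlap broadly.

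Markers of other cell types were read from the same fit, in which 83 of all 16287 tested genes were called lower and 61 higher, 0.884% together. Of 13 projection neuron markers 2 fell, *Neurod6* (645.2 ± 84.38 to 386.9 ± 48.04 CPM, SD, n = 4 each; adjusted p = 0.0192, edgeR), at which the Cre is inserted, and *Emx1* (21.92 ± 3.012 to 14.44 ± 0.5466 CPM; adjusted p = 0.0332, edgeR). Of 16 striatal markers 1 rose, *Ppp1r1b* (30.44 ± 2.259 to 58.98 ± 19.73 CPM; adjusted p = 0.04, edgeR). Of the 16, 13 had a log2 fold change above 0 and 3 below, with a median of 0.256. An unadjusted p under 0.05 was found for 2, against 13.6% of all tested genes. Among the mutants all 16 were highest in replicate 2. Of 5 oligodendrocyte precursor markers 1 rose, *Cspg4* (log2 fold change 0.556, adjusted p = 0.0355, edgeR). The log2 fold changes of all 5 were above 0, and 4 had an unadjusted p under 0.05, against 13.6% of all tested genes. Of 6 microglia markers 1 rose, *C1qb* (0.461, adjusted p = 0.0422, edgeR). Of these 6, 4 had a log2 fold change above 0 and 2 below, with *P2ry12* the lowest (-0.573, adjusted p = 0.0596, edgeR). No marker of radial glia and astrocytes, endothelium and pericytes, red blood cells, meninges and choroid plexus, or olfactory bulb and lateral ganglionic eminence passed the test. The choroid plexus marker *Ttr* ran from 13.96 to 1305 CPM in the controls and from 2.863 to 543 CPM in the mutants. A spread this wide limits what the test could detect for that tissue. The part of the marker changes and of this spread in the CPM of the members was not tested.

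The neighbors of the members on chromosome 2 were also read. Between *Gad1* and *Sp9*, 20 other genes were tested over 2.67 Mb of chromosome 2, of which 0 were called. Of the 20, 2 had an unadjusted p under 0.05, against 13.6% of all tested genes, and the median log2 fold change was -0.007.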

How the data were processed

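RNA-seq of the P1 cortex was processed for 8 libraries, 4 control and 4 dcKO_Nex-Cre. Groups follow the sample titles, and genotypes and the Cre line follow the study's methods. For each library the authors deposited unnormalized read counts by Ensembl identifier, from whole-tissue total RNA and a kit that does not mark strand. The submitters' processing notes name mm10; aligner, counter and annotation are not given in the sources used here. Of 48709 identifiers, 48349 matched GENCODE M21 on GRCm38, the same build.

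Counts were tested in R 4.3.3 with edgeR 4.0.16 (filterByExpr, TMM, robust quasi-likelihood F test, two-sided, no covariates, Benjamini-Hochberg adjustment, threshold 0.05). Alternatives used limma 3.58.1 (voom) and DESeq2 1.42.0, other scalings and filters, the replicate block, lane tag 2 alone and each library left out. Ratios took 0.5 counts added to each gene, and log2 CPM a prior count of 2. The test was checked on simulated counts with known changes. Plots used matplotlib 3.10.9 and pandas 2.3.3 under Python 3.11.15.

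The genes named are the members, *Smarcc1* and *Smarcc2*, in each list every gene with an adjusted p under 0.05 and up to 4 with the smallest p, and the 5 genes most like the members' mean pattern at 1 CPM or more. Genes named for the pattern over libraries (*Zfp503*, *Ebf1*, *Drd2*, *Maf*, *Npas1*, *Htr3a*, *Cux2*, *Reln*), *Npy*, *Pvalb* and *Ttr* were chosen after their values were seen. So were the coefficients given for *Sst* and *Calb1*. The members and lists were chosen with earlier results of these data known. A withheld item is not reported here. The lane tags came from the names of the deposited files. No libraries of a group were copies, the smallest chi-square per degree of freedom being 3.522.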

Additional observations from a re-analysis of the deposited data

Results flagged for a closer look

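Of 84 sets of 4 libraries examined, 5 held a library far from the other 3, and chance at 1 in 20 gives 4.2. Control replicate 2 held *Dlx2* at 49.32 CPM, while the other controls ranged from 37.64 to 39.06 CPM. *Dlx6os1* stood at 118.7 CPM in the same library, against 70.72 to 76.66 CPM. In dcKO_Nex-Cre replicate 2, *Dlx6* stood at 17.28 CPM against 6.399 to 7.717 CPM in the other mutants, and the striatal marker *Ppp1r1b* at 88.34 CPM against 46.05 to 52.09 CPM. Mutant replicate 4 held *Lhx6* at 166.4 CPM, while the other mutants ranged from 117.9 to 122.3 CPM.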

How the results depend on the processing

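Under 19 alternatives, 0 of the 9 members were called in any, and the smallest of the 171 adjusted p was 0.25. *Gad1* stayed lower and *Dlx2* higher in all 19. The count of called genes over the whole table, 144 in the report, was 494 with DESeq2, 259 without a filter, 54 with the replicate block, 248 within lane tag 2 and 18 to 1278 with a library left out, the highest without dcKO_Nex-Cre replicate 4. Added after seeing the data, leaving out control replicate 2 with dcKO_Nex-Cre replicate 2 gave 40 and with dcKO_Nex-Cre replicate 4 gave 1794. The count of other lineage genes called, 1 in the report, was 4 with DESeq2, 3 without a filter, 3 within lane tag 2, 2 with a term for *Xist*, 0 and 9 without those pairs and 0 to 7 with a library left out. The cause was not tested. *Crhbp* was called in 10 of 19, with adjusted p from 0.000242 to 0.152, and *Sst* in 5 of 19, from 0.00108 to 0.301. *Tox3* was called in 5, *Cort* in 4 and *Abat* in 2, each in its direction in the report.

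Directions changed only where the value was near 0 or a library was removed. *Lhx6* turned to 0.003 (DESeq2 size factors), 0.006 (library totals), 0.013 (voom), 0.008 (no filter and replicate block), 0.014 (*Xist* term), and 0.172 and 0.015 without the pairs. Within lane tag 2, *Slc32a1* was 0.15, *Dlx1* -0.063, *Dlx5* 0.105, *Dlx6* 0.274, *Dlx5*/*Dlx6* -0.115 and *Lhx6*/*Slc32a1* -0.234. Without the first pair *Gad2* was 0.014 and *Sp9* -0.149, and without the second *Gad2* was 0.018, *Slc32a1* 0.036, *Dlx5* 0.103 and *Dlx6* 0.228. With a library left out, *Gad2* ran from -0.118 to 0.13, *Dlx1* from -0.001 to 0.158, *Dlx5* from -0.278 to 0.106, *Dlx6* from -0.501 to 0.099, *Lhx6* from -0.132 to 0.151, *Sp9* from -0.173 to 0.242, *Dlx5*/*Dlx6* from -0.028 to 0.22 and *Lhx6*/*Slc32a1* from -0.054 to 0.364. Members without overlap numbered 0 to 2, the 2 without dcKO_Nex-Cre replicate 2, where 5.46% of all tested genes were lower with no overlap.

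Libraries with the same replicate number did not vary together (r from -0.138 to 0.135), so the numbers were not read as pairs. With the replicate block *Crhbp* was at -1.431 and missed the threshold, while *Sst* was at -0.818 and passed it (adjusted p = 0.0491, edgeR). Lane tag 8 holds no control, and 4 libraries a group limit what could be detected.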
